A study of Mus musculus with 7 samples.

Results

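The tuft cell identity and taste signalling genes examined here were 10 genes chosen by name, Pou2f3, Gfi1b, Avil, Dclk1, Sh2d6, Gnat3, Gng13, Plcb2, Trpm5 and Il25. All 10 were among the 55536 genes of the deposited table. RNA was sequenced from medullary thymic epithelial cells (mTECs) of the mouse, sorted from the thymus by the epithelial surface protein EPCAM and lysed directly in a SMART-seq buffer. The genotypes were Cre(-) Ikzf1fl/fl Pou2f3-/- (4 libraries, Cre-negative 46, 48, 75 and 77) and Cre(+) Ikzf1fl/fl Pou2f3-/- (3 libraries, Cre-positive 45, 76 and 80). Every animal thus carried a floxed Ikzf1, which encodes the zinc-finger factor Ikaros, and lacked Pou2f3, and the groups differed in Cre. By genotype, the comparison addresses how Ikaros acts on expression where Pou2f3 is lacking. Neither the loss of Ikaros nor the absence of tuft cells was checked here. No library with an intact Pou2f3 was analysed here, so levels below cannot be set against a thymus that has tuft cells. The sources used here give neither the Cre driver nor the floxed exon, the deleted part of Pou2f3 or the age of the mice. Whether the numbers stand for different mice is not said in the labels. The p-values therefore rest on the spread among these 7 samples, part of which may be technical.

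Tuft cells are chemosensory epithelial cells with a tuft of long microvilli, and the thymic medulla holds a population of them among its mimetic cells, epithelial cells that take on the character of peripheral tissues. The POU factor Pou2f3 is the master regulator of the lineage, together with the coactivators Pou2af2 and Pou2af3. Like taste cells, tuft cells couple G-protein receptors through a gustducin-type G protein to phospholipase C, calcium release from internal stores and the cation channel Trpm5, and they release interleukin 25 and lipid mediators.

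Of the 10 genes, 9 reached the mean of 5 normalized counts required for testing, and 0 of these 9 were called higher or lower in Cre-positive libraries (limma, adjusted p under 0.05). Over all 22878 genes tested, 13.8% were called, 4.66% higher and 9.11% lower (1066 and 2084 genes, or 583 and 2633 with scaling to library totals). Fold changes were positive for 4 of the 9 genes and negative for 5, with a median log2 difference of -0.20 beside -0.10 over all genes tested. The table's normalized counts are reads divided by a library size factor, and 1 read was worth between 0.838 and 1.04 normalized counts. The genes were read at low levels: 5 of 10 had reads in every library, and 8 had a mean under 50 normalized counts. Only Gng13 and Dclk1 had more, with at least 178.3 in every library. Summed over the 10 genes, the libraries held 785 ± 120 (SD, n = 4) normalized counts in Cre-negative and 913 ± 211 (SD, n = 3) in Cre-positive samples, and without Gng13 and Dclk1 180 ± 19.3 and 153 ± 92.9. In bulk RNA, fewer cells of a type and less RNA per cell cannot be told apart.

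**Figure D1:**
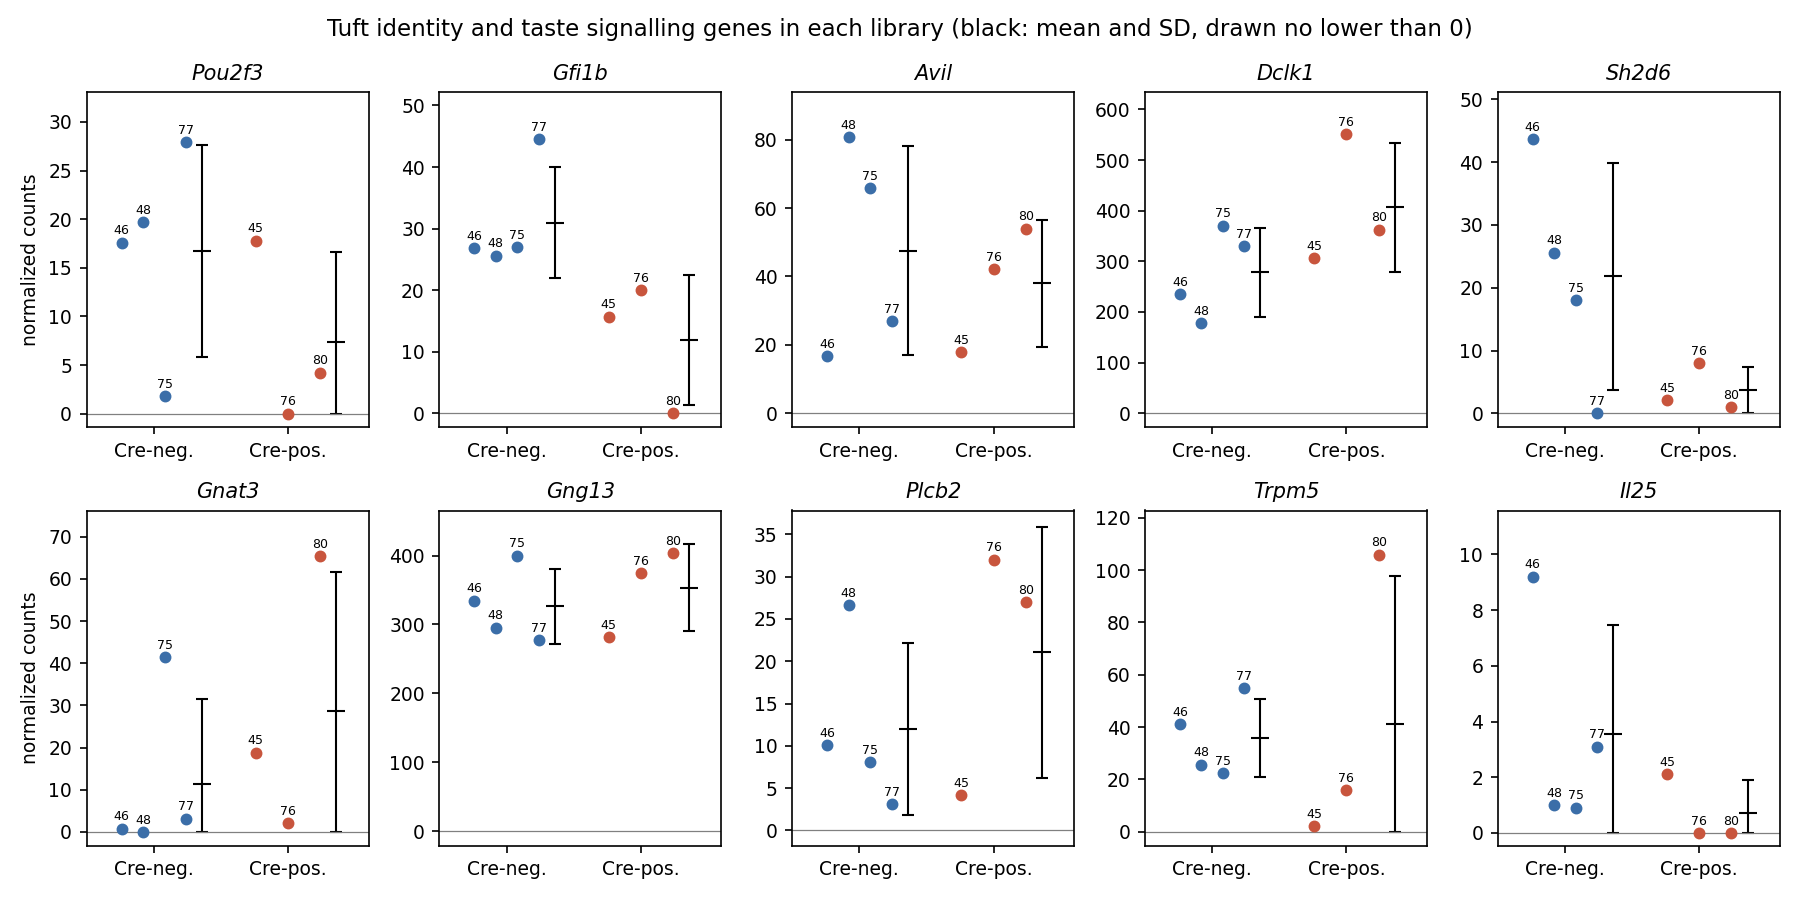
Normalized counts (y axis, linear, its own scale in each panel) of the 10 tuft and taste genes in each library, with Cre-negative and Cre-positive libraries side by side. Points are libraries and black marks the mean and SD, drawn no lower than 0; Gfi1b is the 1 panel in which the groups do not overlap.

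Values per library are given below in the order 46, 48, 75 and 77 for Cre-negative libraries (without Cre) and 45, 76 and 80 for Cre-positive libraries (with Cre). The 2 regulators were read at under 50 normalized counts in every library. Pou2f3 (chr9:43123939-43210369, minus strand, GRCm38) had 17.6, 19.7, 1.8 and 27.9 normalized counts without Cre, and 17.8, 0 and 4.2 with Cre. The groups overlapped, and 91 reads in all fell on the gene. Because these reads are counted over the whole gene and the null allele is not described, they check neither allele nor protein. The log2 difference was -1.53 (95% interval -3.99 to 0.93, limma adjusted p = 0.413), and it ran from -2.54 without Cre-positive 45 to -0.43 without Cre-positive 76. Gfi1b (chr2:28609450-28621982), a zinc-finger repressor of blood cells that is also made in tuft cells, had 26.8, 25.6, 27 and 44.5 normalized counts without Cre. With Cre it had 15.7, 20 and 0. It was the 1 gene of the 9 whose groups did not overlap, as was the case for 25.3% of all genes tested. Its log2 difference of -2.14 (95% interval -4.25 to -0.04) had a limma p of 0.0466 before adjustment and an adjusted p of 0.168, and 28.4% of all genes had an unadjusted p under 0.05. Without Cre-positive 80, which had no read, the difference was -0.73 (limma adjusted p = 0.516). Among blood cell markers, Klf1, an erythroid factor, fell by 3.84 on the log2 scale (limma adjusted p = 0.0154), with 0 in Cre-positive 76 and 80. It was the only call among 5 tested erythroid genes, but all 5 had negative log2 differences, with a median of -2.58. The summed erythroid list ran from 261 to 1859 normalized counts in Cre-negative and from 35.5 to 881 in Cre-positive libraries. In the highest library of each group, Cre-negative 46 and Cre-positive 76, Hbb-bs made up 1340 and 625.9 of the sum. Of 8 megakaryocyte and mast cell genes, 1 rose, Pf4, and 1 fell, Mcpt4. The call of Pf4 held under all 14 alternatives, and that of Mcpt4 did not. Log2 differences were negative for 6 of the 8 genes and positive for 2, with a median of -0.69. The summed list ran from 1737 to 2121 in Cre-negative and from 1749 to 3458 in Cre-positive libraries. Pf4 alone ran from 431.1 to 628.4 and from 894.5 to 2037.7. The part of these cells in the Gfi1b values was not tested.

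None of the 3 genes of cell shape and adaptor signalling, Avil, Dclk1 and Sh2d6, passed the test. Avil (chr10:127000709-127020994), which encodes advillin, an actin-binding protein of the microvillar bundle, had 16.8, 80.8, 65.8 and 26.9 normalized counts without Cre. It had 17.8, 42.1 and 54 with Cre, within the Cre-negative range. Its log2 difference was -0.20 (95% interval -1.59 to 1.20, limma adjusted p = 0.880), and it turned positive without Cre-negative 48 (0.14), Cre-negative 75 (0.045) or Cre-positive 45 (0.26). It shares 165 of 3398 exon bases with the opposite-strand gene Tsfm. Dclk1 (chr3:55242364-55539068), a microtubule-associated kinase used as a tuft cell marker, had 234.6, 178.3, 370.2 and 329.8 normalized counts without Cre. It had 306.2, 550.8 and 362.3 with Cre. The highest value was in a Cre-positive library, but Cre-positive 45 lay below Cre-negative 75 and 77. The log2 difference was 0.56 (95% interval -0.09 to 1.21, limma adjusted p = 0.247), and 0.32 without Cre-positive 76. Sh2d6 (chr6:72513644-72521634), an SH2-domain adaptor, had 43.6, 25.6, 18 and 0 normalized counts without Cre, and 2.1, 8 and 1 with Cre. Cre-negative 77, at 0, lay below all 3 Cre-positive libraries, and the other 3 Cre-negative libraries lay above them. The log2 difference was -1.68 (95% interval -4.37 to 1.01, limma adjusted p = 0.410), and -2.55 in the authors' deposited table, with an adjusted p of 0.126 there. It ran from -2.89 without Cre-negative 77 to -1.06 without Cre-negative 46.

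The cascade downstream of the receptors was read unevenly. Gnat3 (chr5:17962549-18019834), the gustducin alpha subunit, had 0.8, 0, 41.4 and 3.1 normalized counts without Cre, and 18.8, 2 and 65.4 with Cre. In each group 1 library held most of the reads, and the log2 difference was 1.91 (95% interval -1.02 to 4.84, limma adjusted p = 0.390), with 0.87 without Cre-positive 80 and 3.11 without Cre-positive 76. Gng13 (chr17:25717171-25719406), a gamma subunit that pairs with gustducin, had 334.4, 295.5, 400 and 277.1 normalized counts without Cre. It had 282.1, 374.5 and 403.8 with Cre. The groups covered nearly the same range, and the 95% interval of the log2 difference of 0.11, -0.40 to 0.62, was the narrowest of the 9 genes (limma adjusted p = 0.804), and the difference was -0.092 with scaling to library totals. The gene shares 51.6% of its exon length with the opposite-strand gene Chtf18, which had 2 to 31.1 normalized counts. The sources used here do not say whether counting used the strand, so reads in the shared bases cannot be told apart.

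Plcb2 (chr2:118707517-118728438), the phospholipase C of the taste cascade, had 10.1, 26.6, 8.1 and 3.1 normalized counts without Cre, and 4.2, 32 and 27 with Cre. The groups overlapped (log2 difference 0.71, 95% interval -1.26 to 2.67, limma adjusted p = 0.660), and the difference ran from 0.22 without Cre-positive 76 to 1.56 without Cre-positive 45. Trpm5 (chr7:143069153-143094642), the calcium-gated channel that depolarizes the cell, had 41.1, 25.6, 22.5 and 54.8 normalized counts without Cre. It had 2.1, 16 and 105.9 with Cre. Its lowest and its highest library were both Cre-positive, and the sign of its difference was not stable. It was -0.97 (95% interval -3.04 to 1.10, limma adjusted p = 0.554), -2.26 without Cre-positive 80 and 0.29 without Cre-positive 45, and 0.20 with edgeR or DESeq2. Trpm5 shares 220 of 6398 exon bases with Tssc4 on the opposite strand, which was also highest in Cre-positive 80, at 264.7 normalized counts. Il25 (chr14:54932695-54935837), the cytokine by which tuft cells alert group 2 lymphoid cells, had 9.2, 1, 0.9 and 3.1 normalized counts without Cre, and 2.1, 0 and 0 with Cre. Its 18 reads in all, 11 of them in Cre-negative 46, left it under the filter, with a mean of 2.33 normalized counts. With no filter on low values, limma gave a log2 difference of -1.28 (95% interval -3.15 to 0.59, adjusted p = 0.558).

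**Figure D2:**
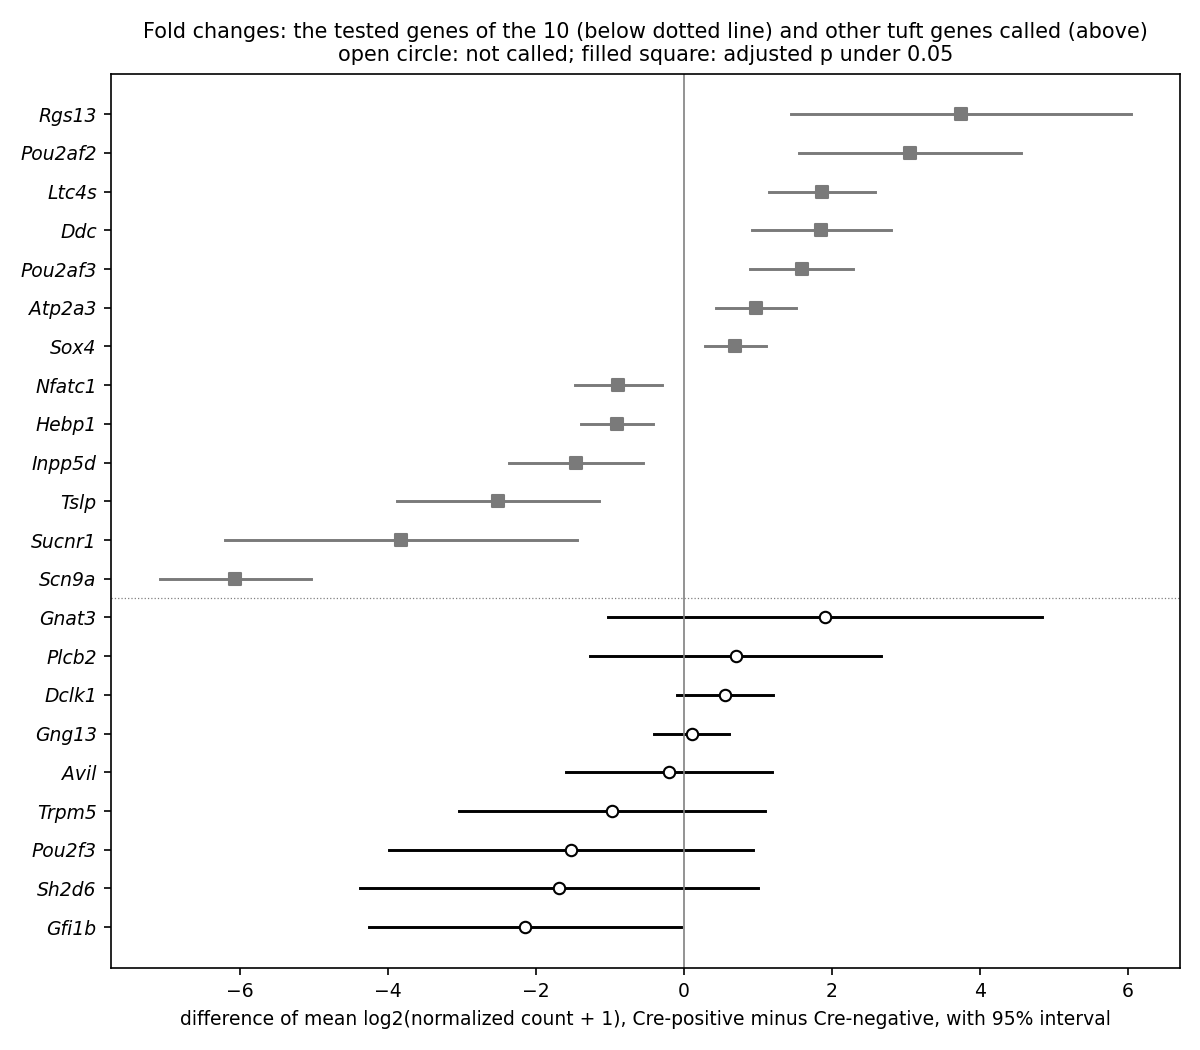
Log2 difference between Cre-positive and Cre-negative libraries (x axis, log2(normalized count + 1) scale) for the 9 tested genes of the 10 and, above the dotted line, 13 of the 14 other tuft genes called. Points are limma estimates and bars 95% intervals; the interval of Gng13 is the narrowest of the 9, from -0.40 to 0.62, and that of Gnat3 runs from -1.02 to 4.84.

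The 10 genes did not move together across the 7 libraries. Among the 45 pairs, Pearson's r of log2(normalized count + 1) was positive for 21 and negative for 24, with a median of -0.05 and a range from -0.81 (Pou2f3 with Gng13) to 0.70 (Pou2f3 with Il25). These are descriptions over 7 libraries that share 2 genotypes, and few reads lie behind most of the pairs. The highest values were scattered in the same way: Sh2d6 and Il25 were highest in Cre-negative 46, Avil in Cre-negative 48, Pou2f3 and Gfi1b in Cre-negative 77, Dclk1 and Plcb2 in Cre-positive 76, and Gnat3, Gng13 and Trpm5 in Cre-positive 80. Split by the sample numbers in the labels, the log2 difference turned sign between 45 to 48 and 75 to 80 for 4 of the 10 genes: Avil (-1.02 and 0.17), Gng13 (-0.16 and 0.22), Plcb2 (-1.75 and 2.32) and Trpm5 (-3.43 and 0.24). The other 6 kept it: Pou2f3 (-0.062 and -1.98), Gfi1b (-0.70 and -2.96), Dclk1 (0.58 and 0.35), Sh2d6 (-3.47 and -0.039), Gnat3 (3.88 and 0.098) and Il25 (-0.54 and -1.48). The range 45 to 48 holds 2 Cre-negative libraries and 1 Cre-positive one, and the range 75 to 80 holds 2 of each. Each first value thus rests on Cre-positive 45 as the only library with Cre. The labels do not say that these numbers mark batches. The residual SD within groups had a median of 1.57 on the log2 scale over the 9 genes and of 0.61 over all genes tested. Low counts vary more: among the 6637 genes with a mean between 10 and 50 normalized counts the median was 1.05, and among the 7 tuft and taste genes in that band it was 1.68, from 0.96 to 2.33. No test was made of that difference. Of those 7 genes, 4 had a library without a read, and 25.8% of the genes in the band did. The profile most like that of Gng13, the gene of the set with the highest mean, belonged to Pgbd1 (r = 0.979), followed by Cops7b (0.971) and Surf6 (0.970), among 22877 genes over 7 libraries, and 47 genes reached 0.9 or more.

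Per kilobase of exon, the scale on which genes can be set side by side, Gng13 stood apart at a mean of 438 normalized counts per kb, in the 94.0th percentile of 20934 coding genes with reads. Dclk1 followed at 21.8, close to the median coding gene at 19.4. The other 8 genes lay under that median: Gnat3 at 13.8, Avil at 12.8, Gfi1b at 12.5, Sh2d6 at 8.31, Trpm5 at 5.98, Pou2f3 at 4.12, Plcb2 at 2.41 and Il25 at 2.19 normalized counts per kb. Apart from Gng13 and Dclk1, whose library values did not overlap, all neighbours in this order overlapped in their library values. For comparison on the same scale, Aire and Epcam of the mTEC marker list had means of 992 and 2391. All 10 genes of that list were read in every library. The list also holds general epithelial genes such as Epcam, so these reads do not by themselves show the labelled cell type. Of those 10, 5 were called, 50% beside 13.8% of all genes tested, with Krt5 higher and Aire, Cd80, Cldn4 and Foxn1 lower. Their log2 differences were 0.59, -0.56, -1.87, -1.56 and -1.02 (limma adjusted p = 0.0475, 0.0395, 0.000251, 0.00125 and 0.00236). The calls of Cd80, Cldn4 and Foxn1 held under all 14 alternatives, and those of Krt5 and Aire did not. Genes of the microfold mimetic cells were all read in every library, with 0 of 8 called, and Insm1, a neuroendocrine factor, had 1012 normalized counts per kb. Of 8 neuroendocrine genes, Neurod1, Scg2 and Scgn were called lower and Syp higher, and of 6 ionocyte genes Stap1 was called lower. Of these 5 neuroendocrine and ionocyte calls, all but that of Scg2 were lost when some single libraries were left out.

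**Figure D3:**
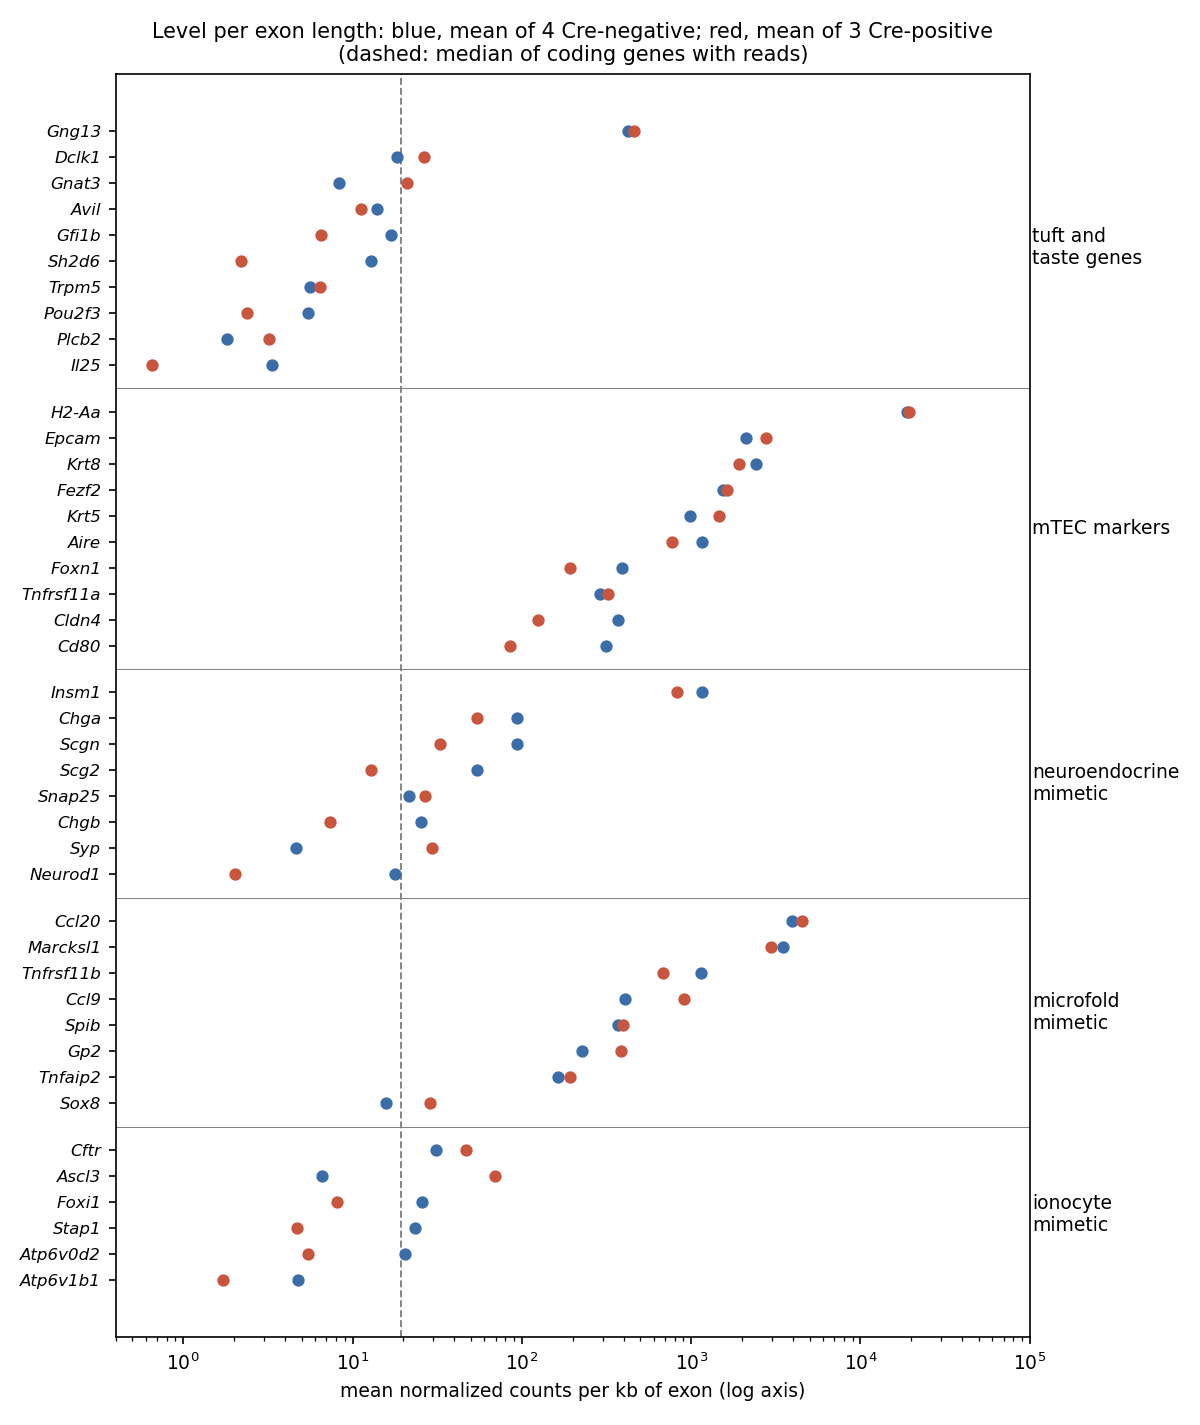
Mean normalized counts per kilobase of exon (x axis, log scale) for the 10 tuft and taste genes, the mTEC markers and markers of 3 other mimetic cell types, 1 line per gene; blue is the mean of 4 Cre-negative and red of 3 Cre-positive libraries, and the dashed line is the median coding gene at 19.4. Gng13, at 438 over all libraries, is the only one of the 10 genes far to the right of that line.

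Other genes of the tuft programme were taken from 5 lists by role, 88 genes in all, of which 69 passed the filter. Of these, 7 were called higher and 7 lower, 20.3% beside 13.8% of all genes tested, and their median log2 difference was -0.070. The regulator list held 3 of the 7 higher calls among its 12 genes, with 1 lower, and the list of released mediators 2 higher and 1 lower among 10 tested. The taste transduction list had 1 higher and 1 lower among 13, the structure and signalling list 1 higher and 3 lower among 28, and the receptor list 1 lower among 6. Of the 21 receptors, 13 had at most 3 reads in every library, and 2 bitter receptors, Tas2r102 and Tas2r105, had none. Over a library of 9815958 to 12599078 reads, a count of 0 allows up to 3 reads.

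Both POU coactivators rose. Pou2af2 (listed as 1810046K07Rik, chr9:51289686-51328917) had 9.2, 31.5, 35.1 and 7.2 normalized counts without Cre, and 55.4, 223.3 and 252.2 with Cre. Every Cre-positive library lay above every Cre-negative one (log2 difference 3.06, SE 0.70, limma adjusted p = 0.012). Without Cre-positive 76 or Cre-positive 80 the adjusted p was 0.0579 or 0.0575. Its neighbour Pou2af3 (listed as Colca2, chr9:51270258-51278569) had 145.8, 312.2, 220.7 and 179.9 normalized counts without Cre, and 402.3, 664.9 and 907.2 with Cre. The groups were again apart (log2 difference 1.59, SE 0.32, limma adjusted p = 0.00594), and the call held under all 14 alternatives of processing or of libraries left out. Pou2af3 shares 57 exon bases with the antisense gene 2010007H06Rik. Sox4, an HMG-box factor that promotes tuft cells, rose from 777 ± 116 to 1260 ± 198 normalized counts (log2 difference 0.70, limma adjusted p = 0.0282). When any of the libraries 46, 48, 45 and 80 was left out, its adjusted p was between 0.0521 and 0.101, and with scaling to the library total it was 0.102. Sox9, the regulator with the highest mean, had 1480.1 to 1680.1 normalized counts in Cre-negative libraries and 2716.8, 3012.3 and 1656.7 with Cre (limma adjusted p = 0.0731). Without Cre-positive 80 its limma adjusted p was 0.00722. DESeq2 gave Sox9 an adjusted p of 0.0470, and the authors' deposited comparison gave 0.0403.

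Of the mediators and the calcium machinery, 4 genes rose. Ltc4s, the leukotriene C4 synthase, had 93.9, 187.1, 247.7 and 133.4 normalized counts without Cre, and 452.5, 530.8 and 768.2 with Cre. The groups were apart (log2 difference 1.87, SE 0.33, limma adjusted p = 0.00288), and the call held under all 14 alternatives. Ltc4s shares 268 of its 1014 exon bases with the antisense gene Gm26542, whose values followed it (r = 0.91 over 7 libraries). Ddc, an aromatic amino acid decarboxylase, had 136.6, 154.6, 37.8 and 101.3 normalized counts without Cre and 258.1, 423.6 and 385.1 with Cre (log2 difference 1.86, limma adjusted p = 0.0136, or 0.0565 without Cre-positive 76). Ddc lies 41174 bases from Ikzf1, the floxed gene, on chromosome 11. Rgs13, a regulator of G-protein signalling, had 0, 6.9, 0 and 6.2 normalized counts without Cre, and 70, 56.1 and 11.4 with Cre. All 3 Cre-positive libraries lay above the Cre-negative ones (log2 difference 3.75, limma adjusted p = 0.034). When any of the libraries 46, 75, 45 and 76 was left out, its adjusted p was between 0.0679 and 0.134, and with edgeR it was 0.0528. Atp2a3, the calcium pump SERCA3, rose from 411 ± 96.0 to 809 ± 191 normalized counts (log2 difference 0.98, limma adjusted p = 0.022). Its adjusted p was 0.0510, 0.0774 and 0.0783 without Cre-negative 46, Cre-positive 76 and Cre-positive 80, and 0.0653 with scaling to the library total.

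The lower calls were led by Scn9a, a voltage-gated sodium channel also known from taste cells. It had 617.6, 414.7, 581.9 and 426 normalized counts without Cre, and 3.1, 16 and 5.2 with Cre (log2 difference -6.06, SE 0.47, limma adjusted p = 1.28e-05). The call held under all 14 alternatives, and with a term for Y-linked level it was the only 1 of the 7 lower calls that stood. Sucnr1, the succinate receptor, had 58.7, 12.8, 1.8 and 16.5 normalized counts in Cre-negative libraries and no read in any Cre-positive one. Its mean was at least 21.8-fold higher in Cre-negative libraries, taking 3 reads over the Cre-positive group as the floor (limma adjusted p = 0.0359). Without Cre-negative 46, which held most of the reads, that bound was 10.1-fold, and without any library but Cre-negative 75 the adjusted p was between 0.0705 and 0.103. Tslp, an epithelial alarmin, had 269.8, 419.6, 291.9 and 64.1 normalized counts without Cre, and 92, 20 and 27 with Cre. Cre-negative 77 lay below Cre-positive 45 (log2 difference -2.51, limma adjusted p = 0.0205). When any of the libraries 46, 48, 75, 76 and 80 was left out, its adjusted p was between 0.0525 and 0.0773.

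The log2 differences of Hebp1, Inpp5d and Nfatc1, also called lower, were smaller than those of Scn9a, Sucnr1 and Tslp. Hebp1, a heme-binding protein, fell by 0.90 on the log2 scale (limma adjusted p = 0.0183), with 0.0512 and 0.0783 without Cre-negative 46 and Cre-positive 45. Inpp5d, a phosphoinositide phosphatase of blood cells, fell by 1.46 (limma adjusted p = 0.0367). Inpp5d left the threshold when any of the libraries 46, 48, 77, 45 and 80 was left out (0.0706 to 0.110). Nfatc1, a calcium-responsive factor, fell by 0.88 (limma adjusted p = 0.0488) and left the threshold when any 1 library was dropped (0.0548 to 0.138). Of 8 myeloid markers, 5 were called, 62.5% beside 13.8% of all genes tested. Called lower were 4, among them Itgam and Adgre1 with log2 differences of -2.30 and -2.91 (limma adjusted p = 0.00531 and 0.000819). Called higher was 1, Lyz2, with 0.66 (limma adjusted p = 0.0328). Lyz2 was not called when any of the libraries 46, 48, 77 and 80 was left out (0.0701 to 0.129). Most of the list's counts were of S100a8, counted here among the myeloid markers, with 22386 to 35197 normalized counts in Cre-negative and 4111 to 5791 in Cre-positive libraries. Which cells the S100a8 reads came from was not tested. The other 7 markers summed to 5637 to 7200 and 7927 to 11432, higher in Cre-positive libraries. Most of that sum was Lyz2, with 4492 to 6130 normalized counts in Cre-negative and 6926 to 11147 in Cre-positive libraries. Log2 differences were negative for 6 of the 8 markers and positive for 2, Lyz2 and Ptprc. No marker was at 0, and the part of such cells in the Inpp5d call was not tested.

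**Figure D4:**
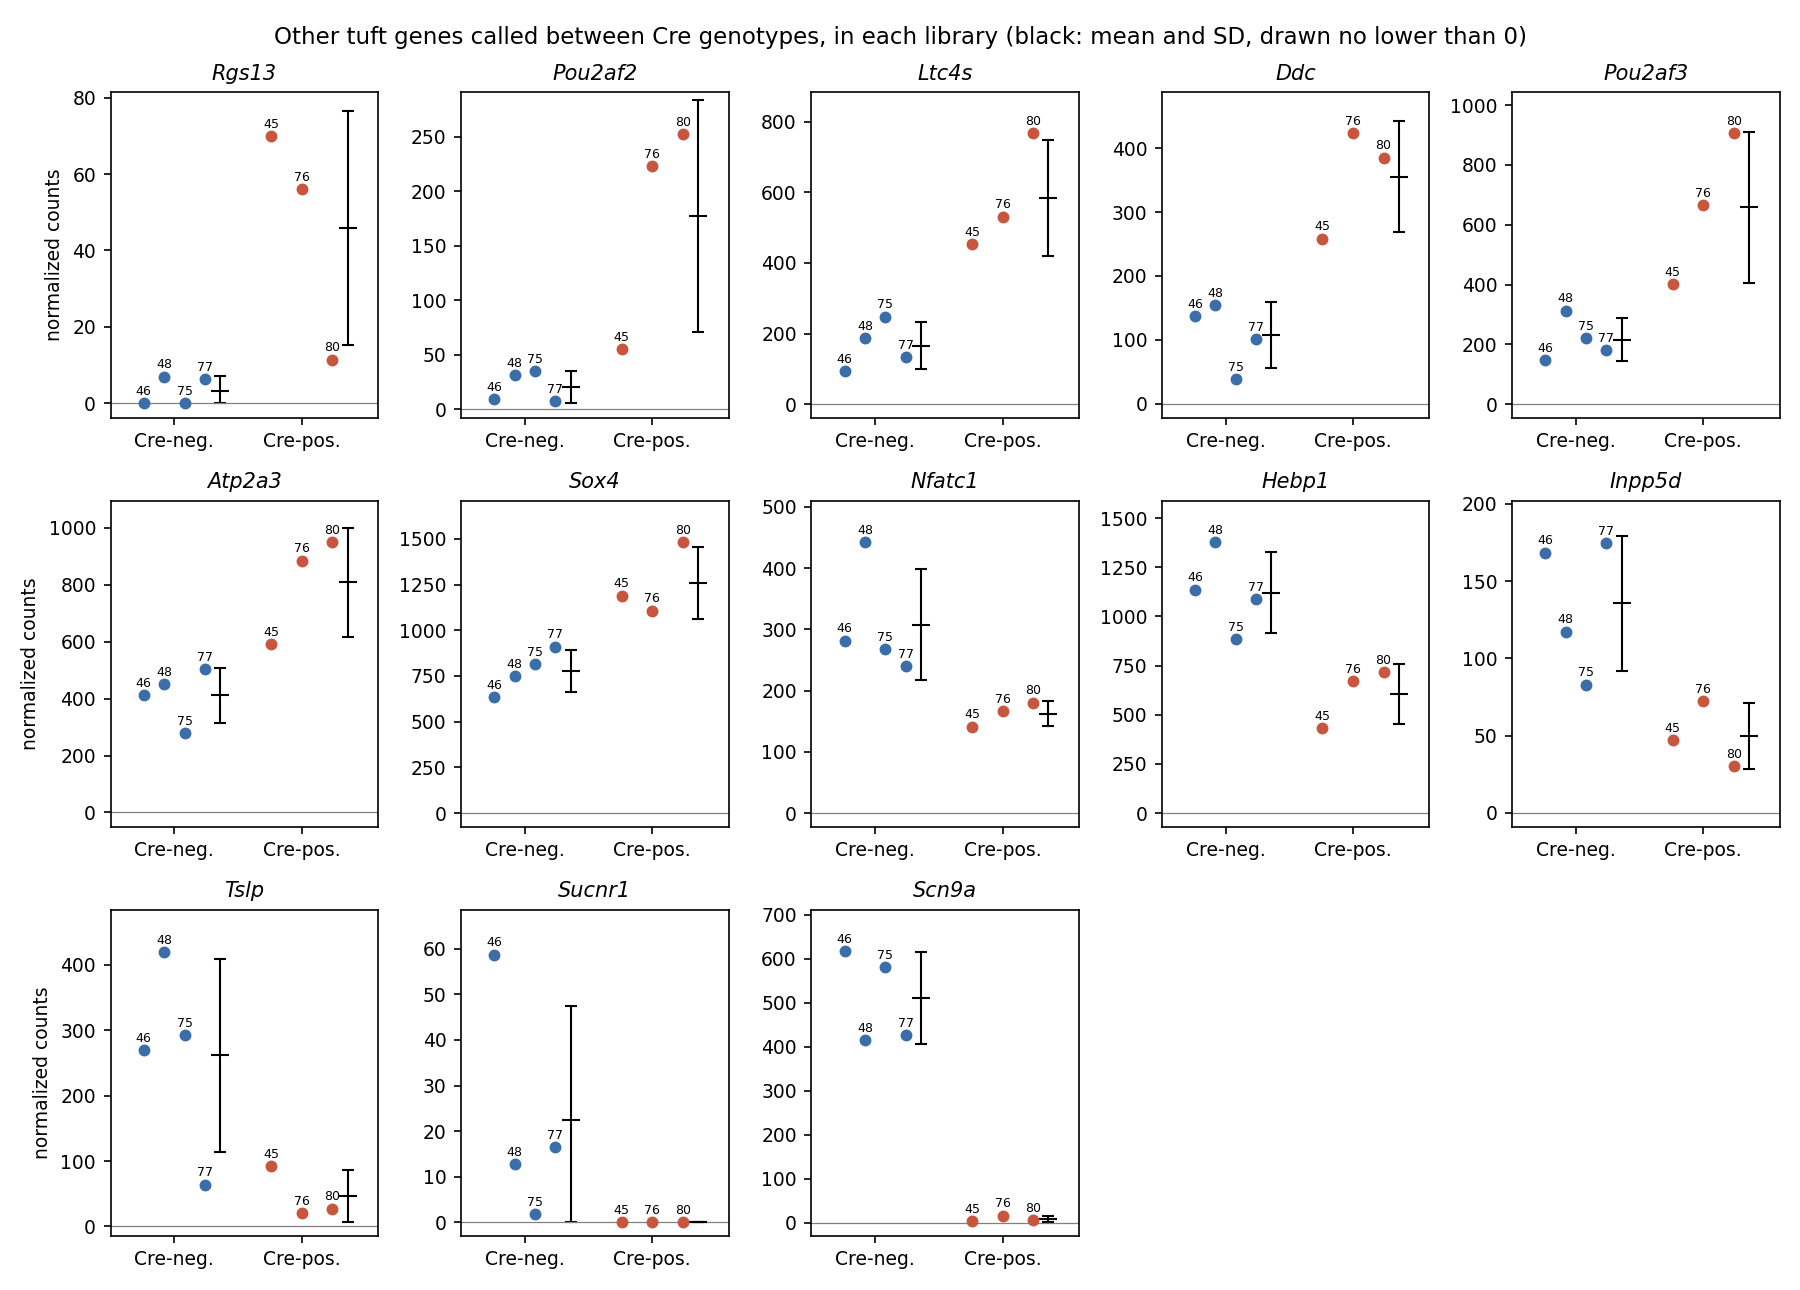
Normalized counts (y axis, linear, its own scale in each panel) of 13 of the 14 genes called among the 88 other tuft genes, by library. Points are libraries and black marks the mean and SD, drawn no lower than 0; Scn9a falls from 414.7 or more normalized counts to 16 or fewer, and Pou2af2 and Pou2af3 are higher in each Cre-positive library than in any Cre-negative one.

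Among tuft genes not called, Gnb1, the beta subunit with the highest mean in the transduction list, had 2043.9 to 2943.2 normalized counts (log2 difference -0.34, limma adjusted p = 0.147). Gnb3, the beta subunit of taste cells, had 24.3, 28.6, 27 and 49.6 normalized counts without Cre and 113.9, 134.2 and 42.6 with Cre (limma adjusted p = 0.0822). In the authors' deposited comparison, Gnb3 had a log2 difference of 1.59 and an adjusted p of 0.0128. Krt18, a keratin, and Ptgs2, a prostaglandin synthase, had the highest means of their lists and log2 differences of -0.56 and -0.35 (limma adjusted p = 0.0669 and 0.264). With scaling to library totals Krt18 and Gnb1 were called lower (0.0140 and 0.0297), and Krt18 was also called without Cre-negative 46 (0.0474). Vmn2r26, the receptor with the highest mean, owed it to Cre-negative 46, at 141.6 normalized counts against 2.1 to 9.9 in the other 6 libraries. Gnb3 was named after its values were seen. Ikzf1, the floxed gene, had 1118.7 to 1219 normalized counts in Cre-negative and 1310.3, 1828.6 and 1677.5 with Cre (log2 difference 0.46, limma adjusted p = 0.0916). Since these counts cover the whole gene, they do not check whether Cre removed the floxed part.

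Promoter sequence was read for 8 of the 10 genes, in 10 windows from 250 bases before to 50 after the RefSeq start site (GRCm38.p6). On both strands, the octamer ATGCAAAT, bound by POU factors, was in 0 of the 10 windows and in 570 of all 32851 promoters (1.74%). It was in 13 of 83 windows of the other tuft genes (15.7%). Genes with a match included the bitter receptors Tas2r107, Tas2r108, Tas2r118, Tas2r126, Tas2r135 and Tas2r137. Of the 21 genes in the receptor list, 13 had at most 3 reads in every library. The called genes with a match were Pou2af2, called higher, and Sucnr1, called lower. TGGGAA, the core of Ikaros sites, was in 2 of the 10 windows, 1 of Dclk1 and that of Sh2d6. The other window of Dclk1 (chr3:55461478-55461777) does not hold it. It was in 15 of 83 windows of the other tuft genes (18.1%) and in 25.6% of all promoters. Called genes with TGGGAA were Sox4, Ltc4s and Rgs13, called higher, and Inpp5d, called lower. The inner GGGAA, which every TGGGAA contains, was in 5 of the 10 windows, in 45 of the 83 (54.2%) and in 62.7% of all. The windows shown are the 2 with TGGGAA among the 10 and 1 of the coactivator Pou2af2. They are Dclk1 (chr3:55242114-55242413, plus strand), Sh2d6 (chr6:72519987-72520286, minus strand) and Pou2af2 (chr9:51328869-51329168, minus strand). Pou2af2 rose, and its window shown holds the octamer, while its other window (chr9:51312620-51312919) does not. Capitals mark TGGGAA in the first 2 windows shown and the octamer, once on each strand, in the last.
Dclk1: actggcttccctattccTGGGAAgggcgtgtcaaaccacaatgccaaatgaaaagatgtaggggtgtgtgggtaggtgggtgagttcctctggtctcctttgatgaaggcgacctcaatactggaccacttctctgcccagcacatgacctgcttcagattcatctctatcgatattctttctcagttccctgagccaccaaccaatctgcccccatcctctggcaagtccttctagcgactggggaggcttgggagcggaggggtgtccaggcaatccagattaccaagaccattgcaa
Sh2d6: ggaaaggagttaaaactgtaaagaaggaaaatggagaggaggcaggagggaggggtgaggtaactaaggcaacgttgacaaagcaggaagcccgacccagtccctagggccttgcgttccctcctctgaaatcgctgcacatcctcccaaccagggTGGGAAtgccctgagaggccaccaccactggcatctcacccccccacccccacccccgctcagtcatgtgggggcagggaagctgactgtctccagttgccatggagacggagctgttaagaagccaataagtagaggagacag
Pou2af2: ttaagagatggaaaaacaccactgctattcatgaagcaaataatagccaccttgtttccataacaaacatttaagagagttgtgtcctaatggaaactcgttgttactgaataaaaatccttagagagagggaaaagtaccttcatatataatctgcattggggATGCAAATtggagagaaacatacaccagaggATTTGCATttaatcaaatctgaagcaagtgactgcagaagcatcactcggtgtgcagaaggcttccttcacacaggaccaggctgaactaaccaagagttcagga
The motif began 233 bases before the start site in Dclk1 and 94 bases before it in Sh2d6, and the octamers of Pou2af2 began 86 and 55 bases before it. A match of letters is a description of the window and was not tested for binding.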

How the data were processed

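RNA of 7 libraries was compared by genotype, 4 Cre-negative against 3 Cre-positive, per the labels. The authors deposited 1 table. Per the file headers it holds normalized counts, a signal in which each library's counts were divided by that library's size factor, with variance-stabilized log2 values, a log2 fold change, p-values and GC percent for each gene, all made by the authors. Per the submitters' processing notes, STAR 2.7.9a, DESeq2 and GRCm39 were used. How reads were counted per gene, and with which strand setting, is not given in the sources used here. Gene coordinates equal those of GENCODE M21 (GRCm38) for 49909 of 52403 shared genes, so positions are on GRCm38.

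Each library's normalized counts were divided by the worth of 1 read, which gave back whole reads. All values (100%) came out whole within 0.0501 normalized counts, with totals of 9815958 to 12599078 reads. The 22878 genes whose mean reached 5 normalized counts were tested by limma 3.58.1 (R 4.3.3) on log2(normalized count + 1) with the trend option of its eBayes step, genotype as the only term, and Benjamini-Hochberg adjustment over all of them. Fold changes are differences between means of logs on that scale, so for genes with few reads they may be smaller or larger than a ratio of mean counts, and 1 library near 0 can shift them. The 95% intervals are limma's, and SDs are of normalized counts. A count test is not the main result because the deposited unit is a signal. edgeR 4.0.16 called 2747 of 19998 genes and DESeq2 1.42.0 called 4314 of 24571 on the recovered reads, beside 3150 by limma. Alternatives were no filter, a pseudocount of 0.5, scaling to library totals, terms for the range of sample numbers and for Y-linked level, and leaving out each library. Level per kb divides by the GENCODE exon length.

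On simulated reads of this comparison, limma (22682 genes) called 14 of 100 changed 2-fold and 62 of 100 changed 4-fold, with 6 false calls. On the same kind of reads edgeR (19992 genes) called 14 and 63, with 3 false calls, and DESeq2 (23072 genes) 22 and 72, with 49. The changed genes were drawn from those with a mean of at least 20 reads. Pou2f3, Sh2d6, Gnat3, Plcb2 and Il25 had 91, 109, 133, 113 and 18 reads over all 7 libraries. They lay below that mean, so these shares do not cover them.

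Named genes were the 10, Ikzf1, every gene of the 5 other tuft lists called by limma, the gene with the highest mean in each such list, and the 3 genes most like Gng13. Of the called genes, 1 is not reported here, though the counts include it. The genes and lists were chosen with earlier results of these data known. Figures were drawn with Python 3.11.15 and matplotlib 3.10.9. Promoter sequences come from RefSeq (GRCm38.p6) and matched 8 of the 10 genes. No molecular identifiers are described for these reads, and the floor of 3 reads covers counting error alone.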

Additional observations from a re-analysis of the deposited data

Results flagged for a closer look

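In 3 genes, 1 Cre-negative library stood further from the others than the 95% critical value of Dixon's test for a group of 4 allows. Gfi1b had 44.5 normalized counts in Cre-negative 77 and 25.6 to 27 in the other 3. Gnat3 had 41.4 in Cre-negative 75 and at most 3.1 in the other 3. Vmn2r26 had 141.6 in Cre-negative 46 and at most 9.9 in the other 3. For normally distributed values, chance alone gives such a gap in about 5% of groups. The values here are normalized counts, many of them low, so that share may not hold for them. Groups of 3, here Cre-positive, were not tested in this way.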

How the results depend on the processing

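Of the 9 tested tuft and taste genes, 0 were called under each of the 14 alternatives, edgeR and DESeq2 included. Il25 was fitted with no filter (adjusted p = 0.558) and by DESeq2, which gave no adjusted p. The sign of Avil turned with a term for Y-linked level (0.18) and without Cre-negative 48 (0.14), Cre-negative 75 (0.045) or Cre-positive 45 (0.26), and leaving out 1 library gave -0.59 to 0.26. That of Gng13 turned with scaling to library totals (-0.092), and that of Trpm5 with edgeR (0.20), with DESeq2 (0.20) and without Cre-positive 45 (0.29), with -2.26 to 0.29 when 1 library was left out; none of these values passed the test. Scaling to library totals moved the median of all genes from -0.10 to -0.29, with 583 genes called higher and 2633 lower, and 11 of the other tuft genes lower in place of 7. With a term for Y-linked level, which was high in Cre-negative 48 alone, 678 genes were called higher, and 7 other tuft genes were called in all, 1 of them lower. Leaving out 1 library gave 1969 to 2702 calls, 590 to 1004 higher and 1309 to 1740 lower, and among the other tuft genes 6 to 10 calls, 3 to 7 higher and 2 to 4 lower. Causes of these shifts were not tested. Few reads limit what can be said of Pou2f3, Gfi1b, Sh2d6, Gnat3, Plcb2 and Il25, each with under 200 reads over all 7 libraries. No paired analysis was possible because the groups share no replicate numbers.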
